A study of Danio rerio with 12 samples.

Results

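The fibroblast growth factor (FGF) and platelet-derived growth factor (PDGF) genes of the zebrafish heart were followed across the first day after cryoinjury, in fish with and without a working copy of myd88, the adaptor of Toll-like and interleukin-1 receptor signaling. Members were taken by gene name from a table of 22736 genes: every fgf, fgfr1 to fgfr4, fgfrl and fgfbp gene, and every pdgfa, pdgfb, pdgfc, pdgfd and pdgfrl gene. Of 48 rows that matched, 2 were fgfr1op genes, which are no FGF receptors, and were left out, so that 46 genes remained. They carried 44 different symbols, because pdgfaa and fgfr1bl are each listed under 2 neighbouring Ensembl entries on chromosome 22. The PDGF receptors pdgfra and pdgfrb were not members and are given for context.

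RNA was sequenced from adult AB fish, females and males, of 3 to 12 months of age in 6 groups of 2 libraries, 12 libraries in all, and each library pooled the tissue of 3 fish, either ventricles or the injured part. The groups were untouched (UT) ventricles, injured tissue at 1 hour post cryoinjury (hpci) and injured tissue at 24 hpci, each from myd88+/+ fish and from myd88-/- siblings that carry the hu3568 allele. Cryoinjury freezes the ventricular apex with a cold probe. A comparison with UT therefore sets injured tissue against a whole ventricle, so that injury and the part of the heart sampled cannot be told apart. With 2 pools a group, fish within a pool are not replicates. In these bulk samples, fewer cells of a type and less RNA per cell cannot be told apart either.

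Secreted FGFs bind receptor tyrosine kinases (fgfr1 to fgfr4) together with heparan sulfate and signal mainly through Ras and ERK, which switches on feedback inhibitors such as the sprouty (spry) and dusp6 genes. A separate subfamily, FGF11 to FGF14, stays inside the cell and acts on voltage-gated sodium channels. PDGF ligands are dimers that act on pdgfra and pdgfrb, receptors of fibroblasts, epicardial cells and mural cells of vessels. In the zebrafish heart both families have been tied to epicardial cells and to the growth of coronary vessels during regeneration.

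Values are normalized counts, that is, read counts divided by a size factor for each library and rounded. Libraries summed to 2998177 to 3747891 normalized counts, and the spacing of low values put the reads per library at 3036272 to 4123603 for 11 libraries and at 1476827 for myd88+/+ 24 hpci replicate 1. For myd88+/+ 1 hpci replicate 1, values below 400 gave 0.506 normalized counts a read in place of 1.01, so that its reads may be undercounted. In the shallow library, 24 hpci replicate 1, 1 read is worth 2.54 normalized counts, so its values under 7.61 rest on fewer than 3 reads. A second library also stood apart. In myd88+/+ 1 hpci replicate 2 the fast skeletal muscle genes myhz2 and mylpfa stood at 1815 and 932, against 31 and 40 in its replicate and at most 11 in the other 10 libraries. The 8 genes of the fast skeletal muscle list summed to 5423 there and to 787 to 2217 elsewhere, and tnnt3a was above 0 in that library alone. Where a member's call was lost without the shallow library or the library with skeletal muscle transcripts, that loss is stated. Other results in myd88+/+ fish are not all given without them, and the pathway genes were not refitted. The transcripts of myd88 were lower without the working gene in UT ventricles (at 32 and 37, against 63 and 56) and after 24 hours (43 and 66, against 79 and 113), but overlapped at 1 hpci, where they lay within 171 to 210 over both genotypes.

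Marker lists moved with time. The 6 macrophage genes summed to 662 to 775 in UT ventricles of both genotypes, 306 to 868 at 1 hpci and 2388 to 4249 at 24 hpci. The 5 thrombocyte genes summed to 608 to 776 in UT, 2949 to 3867 at 1 hpci and 1763 to 2931 at 24 hpci. The 7 cardiomyocyte genes summed to 7095 to 7639 in UT, 5681 to 7854 at 1 hpci and 3061 to 8017 at 24 hpci, where the highest value came from the shallow library. Duplicate reads were removed, which lowers highly expressed genes, so this sum may partly follow how a library was scaled. The 7 epicardial genes summed to 3488 to 4060 in UT, 2244 to 3065 at 1 hpci and 2604 to 4331 at 24 hpci. The 9 fibroblast and mural genes summed to 6015 to 9554 over all libraries. Endocardial and endothelial genes (6) summed to 4999 to 5918 in UT and 3565 to 4136 at 24 hpci, and red blood cell genes (7) to 2161 to 3047 in UT and 4788 to 5818 at 1 hpci. Neutrophil genes (7) summed to 134 to 276 in UT and 566 to 1057 after injury. The part of these shifts in the results on the growth factor genes was not tested.

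Of the 46 members, 27 had a mean above 5 normalized counts over the 12 libraries and were tested among 16643 genes. The other 19 were listed at 0 in 126 of their 228 values and never exceeded 20. These were the 2 FGF binding protein genes, carriers that release FGFs from the matrix, all 4 genes of the FGF9 subfamily (fgf9, fgf16, fgf20a and fgf20b), fgf10a, fgf10b, fgf22, fgf8b, fgf24, 5 of the 7 intracellular FGF genes, 1 fgfr1bl entry and both pdgfaa entries. Of these 19 genes, 12 exceeded the value of 3 reads in at least 1 library. The highest value, 20 for fgf16, came from myd88+/+ 1 hpci replicate 2, and its replicate was listed at 0.

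A gene was called when limma, fitted to log2(normalized count + 1) over all 12 libraries, gave a Benjamini-Hochberg adjusted p under 0.05 and a change above 1.5-fold. Each p measures the spread between pools. Comparisons with UT share their UT libraries and are given side by side. At 1 hpci in myd88+/+ fish, 1 of the 27 members was higher (against 5.01% of all genes tested) and 5 were lower (against 3.73%), together 22.2% of the members against 8.73% of all genes. In myd88-/- fish at that time, 1 was higher (against 5.90%) and 6 were lower (against 4.55%), together 25.9% against 10.4%. At 24 hpci in myd88+/+ fish, 2 were higher (against 19.0%) and 10 lower (against 20.9%), together 44.4% against 39.9%, a share near that of all genes. The count in myd88-/- fish at 24 hpci was 1 higher (against 15.6%) and 12 lower (against 14.5%), together 48.1% against 30.1%. The median log2 fold change of the 27 members at 24 hpci was -1.5 in myd88+/+ and -1.15 in myd88-/- fish, against -0.01 for all genes in both. At 1 hpci the medians were -0.37 against 0.00 in myd88+/+ and -1.08 against -0.03 in myd88-/- fish.

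From 1 to 24 hpci, 1 member was higher (against 16.9% of all genes) and 9 were lower (against 18.0%) in myd88+/+ fish, together 37.0% against 34.8%. In the mutants 3 were higher (against 18.1%) and 7 lower (against 16.3%), together 37.0% against 34.3%. Taken over both directions, these shares were near those of all genes. In myd88+/+ fish the split was 9 lower and 1 higher, where all genes were called lower and higher in like shares. That split was not tested. Over all comparisons 59 calls were made on 23 members, and 19 of the 59 held under each of the 12 alternative settings tried. The 4 tested members without a call were fgfr1b, fgfr1bl, fgfrl1b and pdgfba. Several counts leaned on single libraries or on the pooled spread. The count over all genes tested also changed with the library left out, so these shifts were not read as a trait of the members. For 1 hpci against UT, a fit to the 4 libraries of that comparison alone called no member (and no gene of the 16643) in myd88+/+ fish, and leaving out a single library gave 1 to 3 calls in place of 6 in myd88+/+ and in place of 7 in myd88-/- fish. The count was 1 without either myd88+/+ UT library, and 1 without myd88-/- UT replicate 1 or 1 hpci replicate 2. Without myd88+/+ 1 hpci replicate 2 the count in myd88+/+ fish was 3. Without myd88-/- 24 hpci replicate 2 the 24 hpci count against UT in myd88-/- fish was 3 in place of 13, and it was 6 and 8 without UT replicates 1 and 2 and 8 without 24 hpci replicate 1. Leaving out the shallow library gave 12 calls in myd88+/+ fish at 24 hpci, 11 of them shared with the 12 calls made on all libraries.

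**Figure D1:**
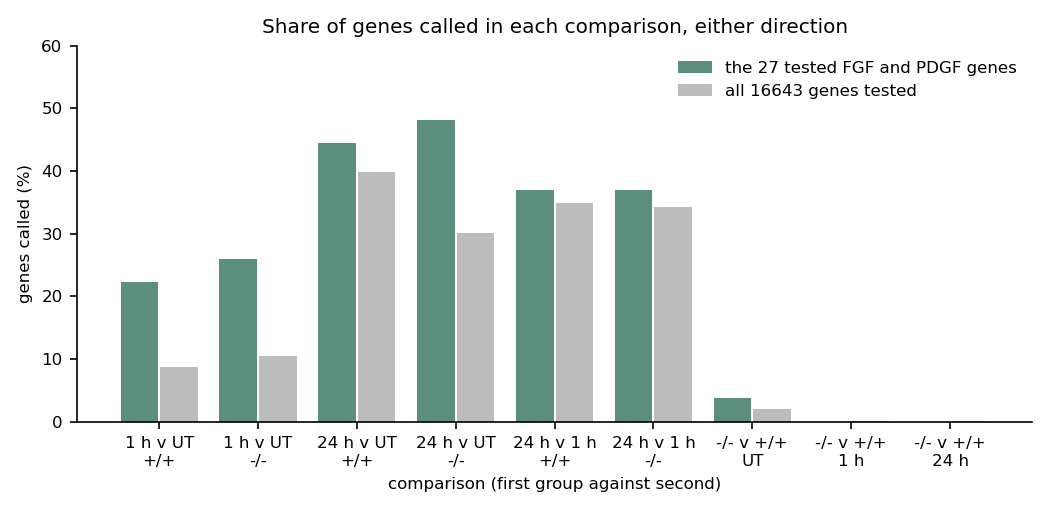
Percentage of genes called in either direction in each comparison, for the 27 tested FGF and PDGF genes (green) and all 16643 genes tested (grey). The green bars stand at 22.2% and 25.9% for 1 hpci against UT, where the grey bars stand at 8.73% and 10.4%. From 1 to 24 hpci the bars stand at 37.0% against 34.8% and 34.3%, and the bars between genotypes at 1 and 24 hpci are at or near 0.

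**Figure D2:**
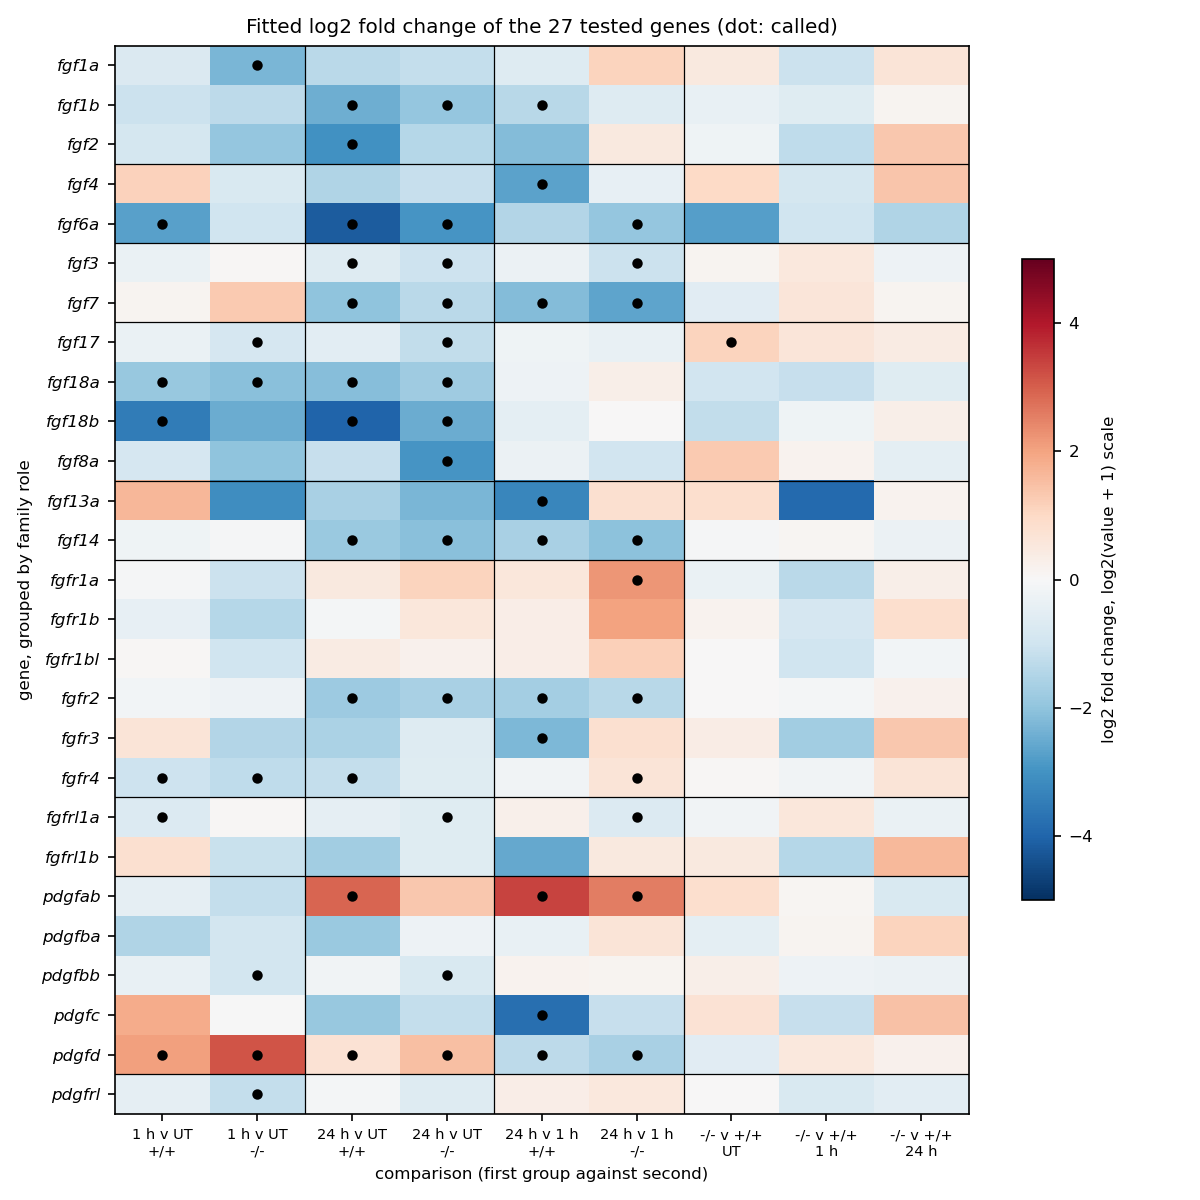
Fitted log2 fold changes on the log2(value + 1) scale (color) of the 27 tested genes in 9 comparisons, grouped by family role, with a dot on each of the 59 calls. Blue cells (lower) fill most of the FGF rows against UT, and the red cells with dots against UT belong to pdgfd and pdgfab.

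Among the PDGF ligands, pdgfd rose within 1 hour of injury and pdgfab rose by 24 hours. Over time the 5 tested PDGF ligands had 7 calls upward, all of pdgfd or pdgfab, and 5 downward, of pdgfbb, pdgfc and pdgfd. These calls come from comparisons that share libraries. In the same comparisons 5.01% to 19.0% of all genes were called higher and 3.73% to 20.9% lower. The calls of secreted FGF ligands over time were all downward. PDGF-D, encoded by pdgfd (ENSDARG00000077677, danRer11 chr15:44929497-44995151, plus strand), is secreted with a CUB domain that must be cleaved off before it binds its receptor. In myd88+/+ fish pdgfd was at 61 and 80 in UT, at 254 and 337 after 1 hour and at 94 and 143 after 24 hours. Its levels in myd88-/- fish were 47 and 47, then 400 and 439, then 116 and 157. All 4 libraries at 1 hpci were above all 8 others. The 5 thrombocyte genes were also high in these libraries, at a sum of 2949 to 3867, against 608 to 776 in UT and 1763 to 2931 at 24 hpci. At 1 hpci against UT, 3 of these 5 were called higher in myd88+/+ and 4 in myd88-/- fish, and 0 lower in either. Which cells held pdgfd was not tested. The log2 fold change of pdgfd at 1 hpci was 2.05 in myd88+/+ (SE 0.27, adjusted p = 0.00192) and 3.13 in myd88-/- fish (SE 0.27, adjusted p = 7.64e-05). Without the library with skeletal muscle transcripts the change in myd88+/+ fish was 1.85 (adjusted p = 0.0146), and fitted to that comparison's own libraries it was no longer called (adjusted p = 0.0552).

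The pdgfd level then fell from 1 to 24 hpci, with a log2 fold change of -1.33 in myd88+/+ (SE 0.27, adjusted p = 0.00357) and of -1.63 in myd88-/- fish (SE 0.27, adjusted p = 0.00118). The call in myd88+/+ fish was lost when only the groups compared were fitted (adjusted p = 0.0548). At 24 hpci pdgfd was still above UT in myd88-/- fish (log2 fold change 1.502, adjusted p = 0.00233). The value in myd88+/+ fish, 0.72 (adjusted p = 0.0499), lay at the threshold and was lost in 9 of 12 alternatives, with a log2 fold change of 0.42 without 24 hpci replicate 2. The genotypes' changes at 1 hpci differed by 1.08 on the log2 scale (SE 0.38), which was not called (adjusted p = 0.404).

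One of the genes for the PDGF-A chain, pdgfab (ENSDARG00000098578, chr3:12924930-12970428, minus strand), encodes a ligand that acts through pdgfra. It was at 21 and 22 in UT ventricles of myd88+/+ fish, 7 and 33 after 1 hour and 185 and 156 after 24 hours. The myd88-/- levels were 41 and 38, 17 and 16, and 78 and 130, here and below in the order UT, 1 hpci and 24 hpci. All 4 libraries at 24 hpci were above the other 8. Against UT the log2 fold change was 2.92 in myd88+/+ fish (SE 0.56, adjusted p = 0.00240), and in myd88-/- fish it was 1.33 without a call (SE 0.56, adjusted p = 0.0940), while the test of the difference between genotypes gave -1.60 (SE 0.79, adjusted p = 0.630). In a fit to the 4 libraries of that comparison alone, pdgfab was called in myd88-/- fish as well (adjusted p = 0.0292). Against 1 hpci it rose in both genotypes, by 3.37 (adjusted p = 0.00130) and 2.54 (adjusted p = 0.00548). Leaving out 1 hpci replicate 2 moved the value in myd88+/+ fish to 4.42 and leaving out replicate 1 to 2.33, both called. Without myd88-/- 24 hpci replicate 2 the call in myd88-/- fish was lost (adjusted p = 0.0598). The macrophage genes were high in the same libraries, at a sum of 2388 to 4249. So were f13a1b (thrombocyte list, 687 to 1558) and wt1b (epicardial list, 183 to 525), which do not stand for their lists. Of the 7 epicardial genes, 1 was called higher and 4 lower at 24 hpci against UT in myd88+/+ fish. In myd88-/- fish 1 was higher and 3 were lower. Of the 5 thrombocyte genes, 1 was called higher and 2 lower from 1 to 24 hpci in myd88+/+ fish, and 1 higher and 3 lower in myd88-/- fish. Which cells held pdgfab was not tested.

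Of the genes for the B chain, which binds both PDGF receptors, pdgfbb fell in myd88-/- fish. Its levels there were 475 and 556, 256 and 288, and 300 and 305, with log2 fold changes of -0.92 (SE 0.21, adjusted p = 0.0210) and -0.76 (SE 0.21, adjusted p = 0.0197). Its levels in myd88+/+ fish were 452 and 396, 264 and 407, and 391 and 356, of which 1 hpci overlapped UT and 24 hpci lay just below it, with log2 fold changes of -0.37 and -0.18 and no call (adjusted p = 0.314 and 0.510). The overlap at 1 hpci rested on the value of 407, from the library with skeletal muscle transcripts, and its replicate was at 264. The differences between the genotypes' changes were -0.55 and -0.58 (adjusted p = 0.682 and 0.646). Each of the 2 calls was lost without any 1 of its 4 libraries (adjusted p up to 0.161 and 0.135 over the alternatives). The other B chain gene, pdgfba, varied within groups, at 180 and 184, 40 and 99, and 15 and 155 in myd88+/+ fish and at 147 and 115, 76 and 63, and 139 and 84 in myd88-/- fish. The value of 15 came from the shallow library, and no comparison was called with all libraries.

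The gene for PDGF-C, the other ligand with a CUB domain, was low. Its level (pdgfc) was 7 and 6, 49 and 14, and 0 and 3 in myd88+/+ fish and 8 and 16, 18 and 7, and 4 and 5 in myd88-/- fish. The fall from 1 to 24 hpci in myd88+/+ fish was called (log2 fold change -3.78, SE 0.82, adjusted p = 0.00539), with values of -2.91 without 1 hpci replicate 1, -4.64 without 1 hpci replicate 2 and -2.77 without the shallow library, where it is listed at 0. Fitted to only the groups compared, that fall was not called (adjusted p = 0.0676). The pdgfaa entries (ENSDARG00000109371 and ENSDARG00000110069), a pair listed under one symbol between which shared reads could have been lost in counting, were at 6 and 7 and at 16 and 13 in myd88+/+ UT. They were at 0 to 3 in each of the 4 injured myd88+/+ libraries. In the mutants they were at 6 and 6 and at 7 and 9 in UT and at 0 to 5 after injury. Their means were under the filter for the test. Without the filter ENSDARG00000110069 was called lower in myd88+/+ fish at 1 and 24 hpci (log2 fold changes -2.95 and -3.15, adjusted p = 0.0276 and 0.00483), and both entries were called lower at 1 hpci in myd88-/- fish (adjusted p = 0.0344 for it and 0.0494 for the other).

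**Figure D3:**
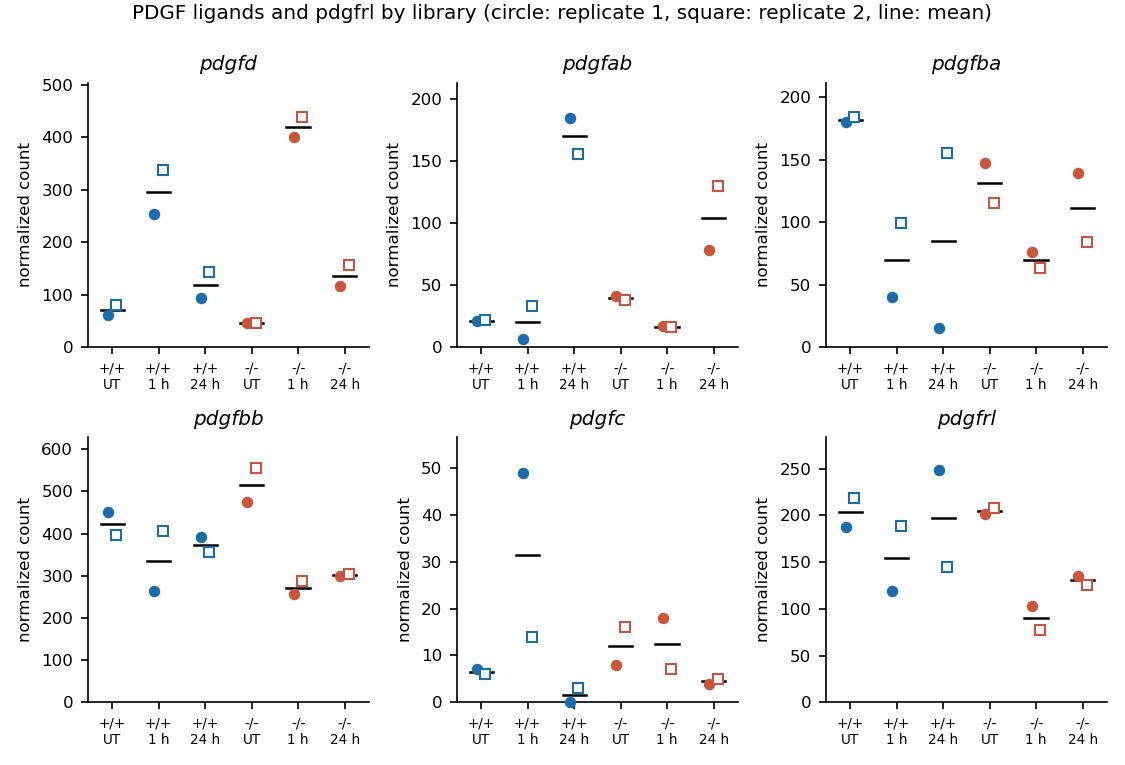
Normalized counts of 5 PDGF ligand genes and pdgfrl in each of the 12 libraries, by group (blue, myd88+/+; red, myd88-/-; circles, replicate 1; squares, replicate 2; lines, group means). The 1 hpci libraries of pdgfd sit between 254 and 439 and the 24 hpci libraries of pdgfab between 78 and 185, above all other libraries of those genes, whereas pdgfba at 24 hpci in myd88+/+ fish spans 15 to 155.

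The PDGF receptors were not called higher in any comparison. pdgfra, a receptor of fibroblasts and epicardial cells, was at 288 and 335, 349 and 177, and 208 and 234 in myd88+/+ fish and at 390 and 353, 209 and 116, and 290 and 210 in myd88-/- fish. Its only call was a fall at 1 hpci in myd88-/- fish (log2 fold change -1.25, SE 0.34, adjusted p = 0.0417). pdgfrb, a mural cell receptor, was at 350 and 361, 225 and 553, and 231 and 313 in myd88+/+ fish and at 474 and 316, 230 and 189, and 365 and 306 in myd88-/- fish, without a call. The receptor-like gene pdgfrl, whose product lacks a kinase domain, was at 201 and 208, 103 and 77, and 135 and 126 in myd88-/- fish. It fell at 1 hpci (log2 fold change -1.19, SE 0.29, adjusted p = 0.0283), a call lost under 4 of 12 alternatives, which left out either UT library or 1 hpci replicate 2 or dropped the variance trend. With myd88 intact, pdgfrl was at 188 and 219, 119 and 189, and 249 and 145, and the groups overlapped. At 1 hpci the overlap with UT rested on the value of 189, from the library with skeletal muscle transcripts, and its replicate was at 119.

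Of 12 other PDGF pathway genes (proteases that release the ligands, co-receptors and signaling partners), 1 was called at 1 hpci against UT in myd88+/+ fish, where the co-receptor nrp1a fell (log2 fold change -1.41, adjusted p = 0.0418). Among myd88-/- fish 3 rose: furina, which encodes a furin protease that cleaves ligand precursors (1.14, adjusted p = 0.00413), nrp2b (1.05, adjusted p = 0.00739) and pik3r1, a regulatory subunit of phosphatidylinositol 3-kinase (1.06, adjusted p = 0.00267). At 24 hpci the kinase gene src rose in both genotypes, by 2.13 (adjusted p = 0.0113) and 2.61 (adjusted p = 0.00542), and in myd88-/- fish plat, which encodes a protease that activates PDGF-C in mammals, rose as well (1.45, adjusted p = 0.0428), while rasa1b, a Ras inhibitor, fell (-0.85, adjusted p = 0.0415). The medians of the 12 genes at 1 hpci were -0.05 in myd88+/+ and 0.26 in myd88-/- fish. At 24 hpci they were -0.25 and 0.37. Their calls against UT were thus 1 and 3 of 12 at 1 hpci, where 8.73% and 10.4% of all genes were called, and 1 and 3 of 12 at 24 hpci, where 39.9% and 30.1% were.

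Among the secreted FGF ligands, 11 of 20 genes were tested, and all 27 of their calls over time were downward. These calls come from comparisons that share libraries. In the same comparisons 3.73% to 20.9% of all genes were called lower and 5.01% to 19.0% higher. With means of 5.75, 5.08 and 5.58, fgf18b, fgf8a and fgf4 passed the filter through the groups from which they fell. They could thus hardly be called in the other direction. In the FGF8 subfamily, whose members bind the c splice forms of the receptors, fgf18a (ENSDARG00000088048, chr14:2487672-2536342, plus strand) was at 231 and 262, 69 and 63, and 96 and 32 in myd88+/+ fish and at 150 and 107, 24 and 35, and 33 and 39 in myd88-/- fish. UT libraries were above all injured libraries of the same genotype. It fell in myd88+/+ fish at both times, with log2 fold changes of -1.88 (SE 0.44, adjusted p = 0.0256) and -2.13 (adjusted p = 0.00364), and in myd88-/- fish, with -2.09 (adjusted p = 0.0136) and -1.79 (adjusted p = 0.0111). Both calls in myd88+/+ fish were lost when only the groups compared were fitted (adjusted p = 0.0552 at 24 hpci). The 1 hpci calls were lost without any 1 of their 4 libraries, at log2 fold changes of -1.97 to -1.79 and of -2.35 to -1.83. At 24 hpci in myd88+/+ fish the change was -2.90 without the shallow library and -1.35 without replicate 2, called in both, and in myd88-/- fish the call was lost without UT replicate 1 or either 24 hpci library (adjusted p up to 0.0840).

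The paralog fgf18b was low, at 25 and 19, 1 and 1, and 0 and 1 in myd88+/+ fish and at 11 and 7, 2 and 0, and 0 and 2 in myd88-/- fish. The falls in myd88+/+ fish were called at both times (log2 fold changes -3.51 and -4.01, adjusted p = 0.0264 and 0.00356), and that in myd88-/- fish at 24 hpci (-2.50, adjusted p = 0.0402). Since few reads remained, the ratio of reads is the plainer measure, although the 1 hpci group holds the library of uncertain depth. UT exceeded 1 hpci 24.1-fold in myd88+/+ fish (42 against 2 estimated reads, 95% interval 6.3 to 205.8, exact binomial, counting error only) and exceeded 24 hpci 38.5-fold (42 against 1, 6.5 to 1554.6). In myd88-/- fish UT exceeded 24 hpci 8.5-fold (19 against 3, 2.5 to 44.8). The call in myd88-/- fish was lost without any 1 of its libraries, and the 1 hpci call was lost without 1 hpci replicate 2 (adjusted p = 0.0607) or either UT library.

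fgf17 (ENSDARG00000102778, chr8:52732107-52745168, minus strand) was the only member called between the genotypes before injury, a call lost in 6 of 12 alternatives. fgf6a, described with the FGF4 subfamily, was called there under 3 alternatives. The levels of fgf17 in UT ventricles were 139 and 149 with myd88 and 325 and 308 without it. After injury they were 122 and 107 against 162 and 188 (1 hpci) and 81 and 122 against 151 and 117 (24 hpci), so that the genotypes overlapped at 24 hpci only. It fell in myd88-/- fish at both times, with log2 fold changes of -0.85 (SE 0.23, adjusted p = 0.0422) and -1.25 (SE 0.23, adjusted p = 0.00307), of which the 24 hpci call held in all 12 alternatives and the 1 hpci call in 4. The changes in myd88+/+ fish were -0.33 and -0.53 without a call (adjusted p = 0.418 and 0.0911), and the genotypes' changes did not differ past the threshold (-0.52 and -0.72, adjusted p = 0.752 and 0.604). The last tested gene of the subfamily, fgf8a, which patterns the embryonic heart and brain in zebrafish, was at 2 and 12, 3 and 2, and 3 and 1 in myd88+/+ fish and at 14 and 15, 4 and 2, and 3 and 0 in myd88-/- fish. It fell at 24 hpci in myd88-/- fish (log2 fold change -2.95, SE 0.90, adjusted p = 0.0292), a call lost without either UT library or 24 hpci replicate 2, with log2 fold changes of -3.95 to -1.62 over the alternatives.

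In the FGF4 subfamily, fgf6a (ENSDARG00000009351, chr25:16945348-16951890, plus strand), whose mammalian counterpart is known from skeletal muscle, was at 70 and 72, 5 and 19, and 3 and 3 in myd88+/+ fish and at 12 and 8, 5 and 4, and 1 and 0 in myd88-/- fish. The myd88+/+ UT ventricles thus stood above all 10 other libraries. It fell in myd88+/+ fish with log2 fold changes of -2.72 at 1 hpci (SE 0.66, adjusted p = 0.0307) and -4.17 at 24 hpci (SE 0.66, adjusted p = 0.000914), the latter called under each alternative. The higher 1 hpci value came from the library with skeletal muscle transcripts, and without it the change was -3.58 (adjusted p = 0.0148), while without replicate 1 it was -1.85 and no longer called, nor was it without either UT library. For myd88-/- fish the change at 24 hpci was -2.94 against UT (adjusted p = 0.00749) and -1.95 against 1 hpci (adjusted p = 0.0403), where 1 estimated read remained. Without 24 hpci replicate 2 these were -2.44 and -1.45 and no longer called, and with a pseudocount of 5 the second was -0.79 without a call. UT exceeded 24 hpci 28.2-fold in reads (21 against 1, 95% interval 4.5 to 1165.0) and 1 hpci exceeded it 12.3-fold (10 against 1, 1.7 to 531.7). fgf4, the founding gene of the subfamily, was at 0 to 14 in all libraries. It fell from 1 to 24 hpci in myd88+/+ fish, from 14 and 7 to 0 and 2 (log2 fold change -2.66, adjusted p = 0.0161), a call lost without 1 hpci replicate 1 and without the shallow library (-2.21 and -1.87). Its reads were 5.8-fold fewer (22 against 3, 95% interval 1.8 to 30.5), counted in part in the 1 hpci library of uncertain depth.

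In the FGF1 subfamily, ligands without a classical signal peptide, fgf1b (ENSDARG00000042811, chr21:44112914-44116241, plus strand) was at 73 and 76, 54 and 23, and 13 and 13 in myd88+/+ fish and at 56 and 60, 23 and 23, and 16 and 13 in myd88-/- fish. Its levels at 24 hpci lay within 13 to 16 in all 4 libraries. Against UT it fell with log2 fold changes of -2.43 in myd88+/+ (SE 0.41, adjusted p = 0.00121) and -1.93 in myd88-/- fish (SE 0.41, adjusted p = 0.00539), the latter not called without 24 hpci replicate 2 (adjusted p = 0.0544). From 1 to 24 hpci it fell in myd88+/+ fish (-1.38, adjusted p = 0.0231), with a value of -0.78 and no call without 1 hpci replicate 1, and no call without the shallow library. Its paralog fgf1a was at 57 and 33, 22 and 31, and 10 and 27 in myd88+/+ fish and at 83 and 46, 14 and 10, and 34 and 21 in myd88-/- fish, and it fell at 1 hpci in myd88-/- fish (-2.29, SE 0.54, adjusted p = 0.0227), a call that was lost without any 1 of its 4 libraries. fgf2, the gene for basic FGF, a mitogen of fibroblasts and endothelial cells, was at 17 and 21, 6 and 16, and 0 and 5 in myd88+/+ fish and at 16 and 16, 3 and 4, and 12 and 2 in myd88-/- fish. Its fall at 24 hpci in myd88+/+ fish (-3.02, SE 0.92, adjusted p = 0.0235) rested on the shallow library, where it was listed at 0, and was -1.73 without it (adjusted p = 0.163). It was also lost without either UT library (-3.17 and -2.88).

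In the FGF7 subfamily, fgf7 (ENSDARG00000059387, chr18:5428472-5439775, plus strand) encodes keratinocyte growth factor, which mesenchymal cells make and which acts on the epithelial form of fgfr2 in mammals. Its levels were 45 and 42, 63 and 37, and 10 and 10 in myd88+/+ fish and 19 and 45, 77 and 70, and 12 and 10 in myd88-/- fish. The 24 hpci libraries were the lowest 4 of the 12. From 1 to 24 hpci it fell with log2 fold changes of -2.17 in myd88+/+ (SE 0.44, adjusted p = 0.00391) and -2.64 in myd88-/- fish (SE 0.44, adjusted p = 0.00132). The call in myd88+/+ fish was lost when only the groups compared were fitted (adjusted p = 0.0624). Against UT the changes were -2.01 (adjusted p = 0.00506) and -1.34 (adjusted p = 0.0404), of which the last held in 6 of 12 alternatives and was -0.74 without UT replicate 2. The levels of fgf3, which acts in early development of the ear and brain in zebrafish, were 301 and 266, 284 and 182, and 208 and 161 in myd88+/+ fish and 316 and 301, 325 and 324, and 161 and 143 in myd88-/- fish. fgf3 fell from 1 to 24 hpci in myd88-/- fish (log2 fold change -1.09, SE 0.23, adjusted p = 0.00408), and at 24 hpci it was below UT in both genotypes (-0.63 and -1.02, adjusted p = 0.0463 and 0.00707). The first of these was lost without either UT library or 24 hpci replicate 2 (-0.44 without the latter), and the second without UT replicate 1 or 24 hpci replicate 2 (adjusted p = 0.0503 and 0.0703).

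Of the 7 intracellular FGF genes 2 were tested, and their 5 calls over time were also downward. They come from comparisons that share libraries, and all but that of fgf13a were of fgf14. In these comparisons 3.73% to 20.9% of all genes were called lower. fgf14 (ENSDARG00000040982, chr9:31838044-31915423, minus strand) was at 201 and 203, 214 and 140, and 53 and 57 in myd88+/+ fish and at 179 and 206, 189 and 183, and 56 and 35 in myd88-/- fish. The level was thus within 140 to 214 in the 8 libraries from UT and 1 hpci and within 35 to 57 in the 4 at 24 hpci. Against UT it fell with log2 fold changes of -1.86 in myd88+/+ (SE 0.27, adjusted p = 0.000572) and -2.09 in myd88-/- fish (SE 0.27, adjusted p = 0.000493), and from 1 to 24 hpci with -1.64 (adjusted p = 0.00128) and -2.04 (adjusted p = 0.000373). All 4 calls held under each of the 12 alternatives. The cardiomyocyte gene ryr2b, the ryanodine receptor of the sarcoplasmic reticulum, was at 2044 to 3347 in the same 8 libraries and at 357 to 824 in the 4 at 24 hpci. The myosin light chain gene myl7 was at 802 to 1010 in the same 8 libraries, at 548, 568 and 550 in 3 of those from 24 hpci and at 1561 in the shallow library. Of the 7 cardiomyocyte genes, 2 were called lower and 0 higher at 24 hpci against UT in each genotype. Their median log2 fold changes were 0.05 in myd88+/+ and -0.61 in myd88-/- fish. Duplicate removal lowers highly expressed genes, so levels such as those of myl7 may partly follow how a library was scaled. In the shallow library 1 read was worth 2.54 normalized counts, against 0.751, 0.727 and 0.767 in the libraries with myl7 at 548, 568 and 550. The part of scaling in these values was not tested. The other tested intracellular FGF gene, fgf13a, was at 13 and 15, 169 and 12, and 3 and 5 in myd88+/+ fish and at 24 and 28, 4 and 1, and 5 and 4 in myd88-/- fish. The value of 169 came from a single library, 1 hpci replicate 1, and the next highest was 28. The fall from 1 to 24 hpci in myd88+/+ fish (-3.26, SE 0.97, adjusted p = 0.0241) was -1.41 without that library (adjusted p = 0.140), -5.12 without replicate 2 and -2.97 without the shallow library (adjusted p = 0.0917).

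**Figure D4:**
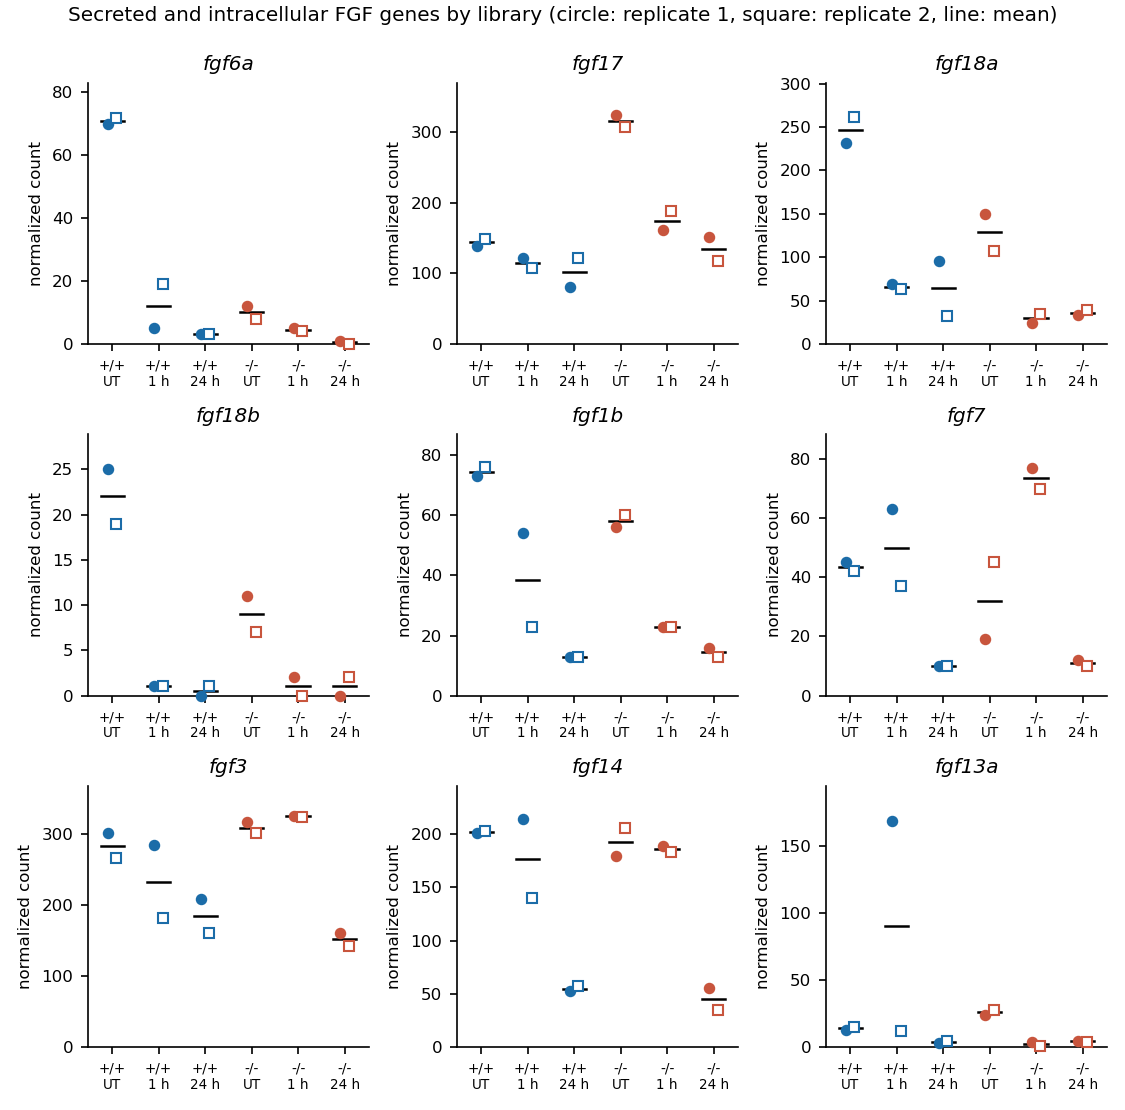
Normalized counts of 7 secreted FGF ligand genes and the intracellular FGF genes fgf14 and fgf13a in each of the 12 libraries, by group (blue, myd88+/+; red, myd88-/-; circles, replicate 1; squares, replicate 2; lines, group means). fgf14 lies at 35 to 57 and fgf7 at 10 to 12 in the 4 libraries at 24 hpci, fgf6a stands at 70 and 72 in myd88+/+ UT ventricles alone, fgf17 at 325 and 308 in myd88-/- UT ventricles, and fgf13a at 169 in a single library.

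Among the FGF receptors, fgfr2 fell by 24 hpci and fgfr4 already at 1 hpci, while fgfr1a rose from 1 to 24 hpci in myd88-/- fish. fgfr2 (ENSDARG00000058115, chr13:46298560-46429433, minus strand) was at 369 and 322, 437 and 230, and 84 and 110 in myd88+/+ fish and at 348 and 357, 340 and 262, and 143 and 89 in myd88-/- fish. The 4 libraries at 24 hpci lay below the other 8. The log2 fold change against UT was -1.83 in myd88+/+ (SE 0.32, adjusted p = 0.00146) and -1.64 in myd88-/- fish (SE 0.32, adjusted p = 0.00366). From 1 to 24 hpci it was -1.71 (adjusted p = 0.00235) and -1.39 (adjusted p = 0.00654). Without myd88-/- 24 hpci replicate 2 both calls in myd88-/- fish were lost (adjusted p = 0.0502 and 0.0750), and the second also without 1 hpci replicate 1 (adjusted p = 0.0565).

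fgfr4 (ENSDARG00000069105, chr21:37183124-37194839, minus strand), which serves FGF19-type ligands in mammals, was at 525 and 404, 216 and 236, and 170 and 239 in myd88+/+ fish and at 554 and 409, 207 and 192, and 324 and 301 in myd88-/- fish. UT libraries were above all injured ones. At 1 hpci it fell with log2 fold changes of -1.02 in myd88+/+ (SE 0.22, adjusted p = 0.0199) and -1.25 in myd88-/- fish (SE 0.22, adjusted p = 0.00622), and at 24 hpci it was below UT in myd88+/+ fish (-1.19, adjusted p = 0.00225). Without myd88 it rose from 1 to 24 hpci (0.65, SE 0.22, adjusted p = 0.0445), a call held in 4 of 12 alternatives, and the value against UT was -0.61 without a call (adjusted p = 0.0613). That value was called when its own 4 libraries were fitted alone (adjusted p = 0.04665). The 1 hpci call in myd88+/+ fish was lost without any 1 of its libraries, with a log2 fold change of -1.09 (adjusted p = 0.0527) without the library with skeletal muscle transcripts. The 1 hpci call in myd88-/- fish was lost without UT replicate 1 or 1 hpci replicate 2 (adjusted p = 0.0734 and 0.0658).

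fgfr1a, a copy of FGFR1, was at 68 and 47, 28 and 102, and 71 and 89 in myd88+/+ fish and at 55 and 36, 32 and 13, and 97 and 99 in myd88-/- fish. Its rise from 1 to 24 hpci in myd88-/- fish was called (log2 fold change 2.20, SE 0.57, adjusted p = 0.0125), but not without 1 hpci replicate 2 or either 24 hpci library (1.58 without the first of these). In myd88+/+ fish the same change was 0.56 (SE 0.57, adjusted p = 0.473) and the difference between genotypes was 1.64 (adjusted p = 0.799). The myd88+/+ value of 102 at 1 hpci came from the library with skeletal muscle transcripts. Its replicate, at 28, lay below both 24 hpci libraries of that genotype, at 71 and 89. The change without the first library is not given, so the rise cannot be said to be confined to myd88-/- fish. The second copy, fgfr1b, was at 35 and 14, 8 and 33, and 13 and 33 in myd88+/+ fish and at 32 and 20, 18 and 4, and 42 and 35 in myd88-/- fish, with no call. One fgfr1bl entry lay within 10 to 41 in all libraries, also without a call, and the other at 0 to 3.

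fgfr3, known as a brake on cartilage growth in mammals, was at 16 and 25, 13 and 77, and 3 and 11 in myd88+/+ fish and at 26 and 27, 9 and 9, and 18 and 15 in myd88-/- fish. Its fall from 1 to 24 hpci in myd88+/+ fish (-2.25, SE 0.76, adjusted p = 0.0392) rested on the value of 77 from the library with skeletal muscle transcripts, and was -1.01 without it (adjusted p = 0.277) and -1.46 without the shallow library (adjusted p = 0.212). The receptor-like genes fgfrl1a and fgfrl1b encode membrane proteins without a kinase domain. fgfrl1a was at 617 and 591, 392 and 354, and 515 and 379 in myd88+/+ fish and at 511 and 549, 563 and 540, and 368 and 326 in myd88-/- fish. It fell at 1 hpci in myd88+/+ fish (log2 fold change -0.69, SE 0.18, adjusted p = 0.0376) and at 24 hpci in myd88-/- fish (-0.61 against UT, adjusted p = 0.0248, and -0.67 against 1 hpci, adjusted p = 0.0145). The last was lost with quantile normalization (-0.47) and without either 1 hpci library or 24 hpci replicate 2 (adjusted p up to 0.112). The genotypes' changes differed by 0.75 at 1 hpci and by -0.91 from 1 to 24 hpci, neither of which was called (adjusted p = 0.380 and 0.559). The calls of fgfrl1a against UT were lost without any 1 of their libraries (-0.62 without myd88+/+ 1 hpci replicate 2). fgfrl1b was at 17 and 11, 14 and 43, and 0 and 18 in myd88+/+ fish and at 16 and 24, 9 and 8, and 19 and 8 in myd88-/- fish, and was not called. Its highest value came from the library with skeletal muscle transcripts and its value of 0 from the shallow one.

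**Figure D5:**
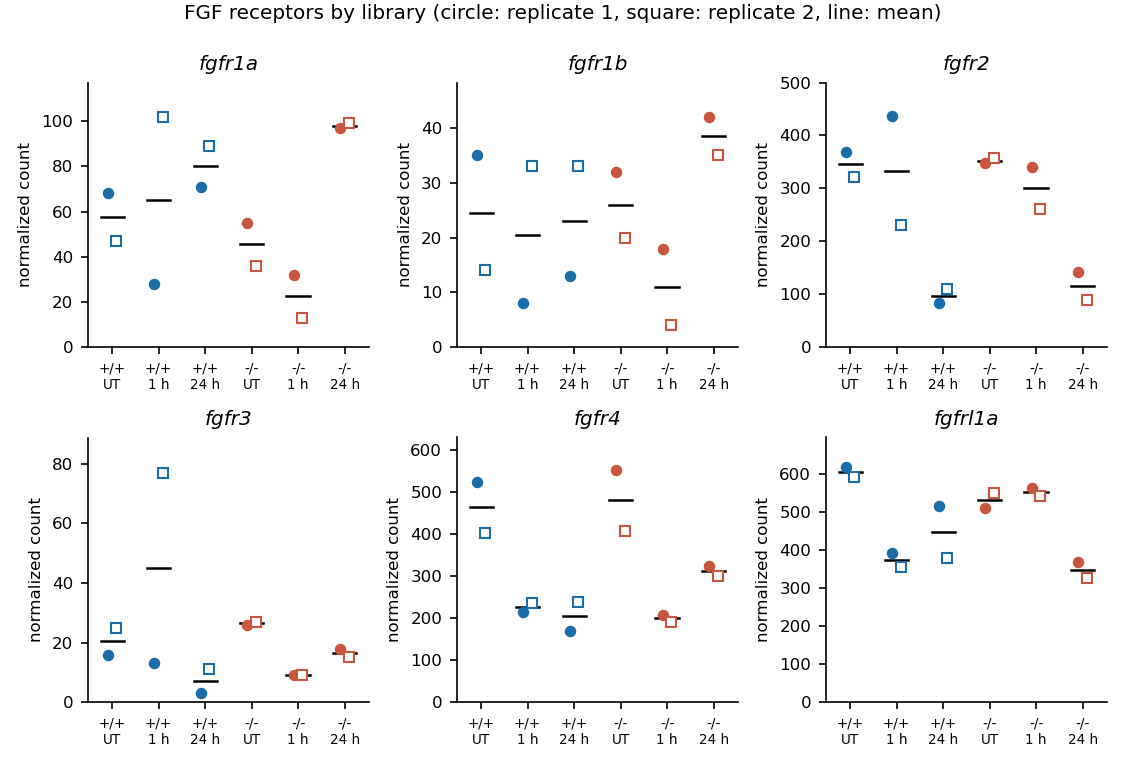
Normalized counts of 5 FGF receptor genes and fgfrl1a in each of the 12 libraries, by group (blue, myd88+/+; red, myd88-/-; circles, replicate 1; squares, replicate 2; lines, group means). fgfr2 lies at 84 to 143 in the 4 libraries at 24 hpci and at 230 or more in the others, fgfr4 is at 404 or more in UT ventricles and at 324 or less after injury, and fgfr3 at 1 hpci in myd88+/+ fish spans 13 to 77.

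FGF co-receptors, heparan sulfate genes and adaptors moved both ways. Of 23 tested genes of 26, 2 were higher and 3 lower at 1 hpci in myd88+/+ fish and 1 was higher and 1 lower in myd88-/- fish. At 24 hpci against UT, 3 were higher and 3 lower, and 4 were higher and 3 lower. At 24 hpci this was 6 of 23 in myd88+/+ and 7 of 23 in myd88-/- fish, against 39.9% and 30.1% of all genes, and at 1 hpci 5 and 2 of 23, against 8.73% and 10.4%. The medians of these genes against UT lay between -0.19 and 0.04. The alternative settings were not rerun for the genes of this list or of the other pathway lists. The adaptor gene gab1 fell at 1 hpci in myd88+/+ fish (-1.90, SE 0.15, adjusted p = 0.000154) and its changes differed between the genotypes by 1.53 (SE 0.21, adjusted p = 0.0315). That test of different change called 23 of all genes, but 1 without the variance trend and 7 with the replicate number as a block. Whether gab1 was among these was not examined. The fall itself was not called when the 4 libraries of that comparison were fitted alone, since 0 of 16643 genes were. The heparan sulfate proteoglycan gene sdc4 rose at 1 hpci in both genotypes (1.43 and 1.93, adjusted p = 0.00933 and 0.00128), and the related gpc1b rose at 24 hpci (1.55 and 2.14, adjusted p = 0.0186 and 0.00514). The sulfotransferase gene ndst1a fell at 24 hpci (-2.39 and -2.45, adjusted p = 0.00898 and 0.0102). flrt3, whose product binds FGF receptors, fell at 1 hpci (-1.81 and -2.71, adjusted p = 0.0194 and 0.00204) and rose again by 24 hpci (2.11 and 2.89, adjusted p = 0.00240 and 0.000435).

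Of 12 tested FGF feedback and target genes, 1 was higher and none lower at 1 hpci in myd88+/+ fish and 2 were higher and 2 lower in myd88-/- fish, while at 24 hpci against UT 2 were lower in myd88+/+ fish and 1 was higher and 3 were lower in myd88-/- fish. From 1 to 24 hpci 0 were higher in either genotype, and 5 and 4 were lower. All genes were called in either direction at 8.73% and 10.4% at 1 hpci, 39.9% and 30.1% at 24 hpci, and 34.8% and 34.3% from 1 to 24 hpci. The 1 of 12 and 2 of 12 called against UT in myd88+/+ fish were thus no more than in all genes. At 1 hpci in myd88-/- fish 5.90% of all genes were called higher and 4.55% lower. From 1 to 24 hpci 18.0% and 16.3% were called lower. These shares were below those of the 12 genes, but the list was not tested as a set. spry4, a sprouty inhibitor of Ras signaling, was at 711 and 677, 1861 and 1242, and 492 and 494 in myd88+/+ fish and at 249 and 239, 1300 and 1390, and 548 and 588 in myd88-/- fish. It rose at 1 hpci in both genotypes (1.13 and 2.46, adjusted p = 0.00763 and 5.3e-05) and fell from there to 24 hpci (-1.62 and -1.24, adjusted p = 0.000247 and 0.000869), and in UT ventricles it was lower in myd88-/- fish (log2 fold change -1.504, SE 0.19, adjusted p = 0.00507). dusp6, an ERK phosphatase, was at 972 and 910, 1618 and 1492, and 1086 and 708 in myd88+/+ fish and at 677 and 776, 1549 and 1660, and 782 and 802 in myd88-/- fish. It rose at 1 hpci in myd88-/- fish (1.14, adjusted p = 0.00639) and reached 0.72 in myd88+/+ fish (adjusted p = 0.0539). The ETS factor genes etv4, etv5a and etv5b, common FGF targets, were not called higher in any comparison with UT, and etv5a fell at 1 hpci in myd88-/- fish (-1.10, adjusted p = 0.0340) and etv5b at 24 hpci in myd88+/+ fish (-0.92, adjusted p = 0.0406). Other signals that act through ERK are known to raise these feedback genes as well.

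Between the genotypes, 1 of 27 members was called in UT ventricles, against 2.08% of all genes in either direction, 0.937% higher and 1.15% lower. It was fgf17, higher in myd88-/- fish by 1.13 on the log2 scale (SE 0.23, adjusted p = 0.0366). That call was lost without any 1 of the 4 UT libraries, without the variance trend and with the replicate number as a block. fgf6a, at 70 and 72 against 12 and 8, gave a log2 fold change of -2.73 (SE 0.66) without a call (adjusted p = 0.0639), but it was called with a pseudocount of 5, with quantile normalization and in a fit of the UT libraries alone (adjusted p = 0.0197, 0.0241 and 0.0429).

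At 1 hpci no member was called between the genotypes by limma (0.120% of all genes were) and 8 of the 27 had an unadjusted p under 0.05, against 8.84% of all genes. Among the 8, fgfr1a, fgfr3 and pdgfrl were at 102, 77 and 189 in the library with skeletal muscle transcripts, against 28, 13 and 119 in its replicate. The others were fgfrl1a, fgf3, fgf17, fgf18a and fgf13a. The count of 8 is not given without that library, so it was not read as a tendency of the genotype. The lowest adjusted p was 0.198, for fgf13a, at 169 and 12 against 4 and 1. Without myd88+/+ 1 hpci replicate 2, the library with skeletal muscle transcripts, fgf13a was called there (-5.75, adjusted p = 0.0186) and in the difference of the 1 hpci changes (-6.60, adjusted p = 0.0398), each resting on the value of 169. The medians of the 27 members were -0.60 at 1 hpci and 0.22 at 24 hpci, against -0.01 and 0.04 for all genes. At 24 hpci no member was called (0.0300% of all genes) and 2 of the 27, fgfr4 and fgf6a, had an unadjusted p under 0.05, against 5.13% of all genes. In a fit without myd88+/+ 24 hpci replicate 2, which leaves the shallow library to stand for its group, 4 of the 27 were called, fgfr4, fgfrl1b and pdgfba as higher and fgf18a as lower in myd88-/- fish, and 2165 of all 16643 genes, a like share.

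The tests of whether a change over time differed between the genotypes called no member for 1 hpci against UT (0.138% of all genes called), 24 hpci against UT (0.0481%) or 24 against 1 hpci (0.0180%). An unadjusted p under 0.05 was found for 3, 0 and 7 of the 27 members in that order, against 8.56%, 8.38% and 5.95% of all genes. Their standard errors were 0.25 for fgfrl1a and 1.57 for fgfrl1b, so that differences of the size of a called change could be missed in members with the larger errors, and the absence of a call does not show that the genotypes acted alike.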

How the data were processed

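The authors trimmed 75-bp single-end reads with Trimmomatic 0.39, aligned them with STAR 2.7.3a to danRer11, removed duplicate, multimapping, ribosomal and mitochondrial reads with Picard 2.21.7, counted exon reads of a stranded mRNA library with featureCounts 1.6.5 and normalized with DESeq2 1.26.0. The deposited values, read counts scaled by each library's size factor and then rounded, were treated as a score rather than as raw counts, so no count test was run on them. Removing multimapping and duplicate reads lowers near-identical and highly expressed genes, and gene lengths were not used, so levels were compared within a gene only. The authors' own fold changes and p-values in the table were not used.

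Genes with a mean above 5 over 12 libraries (16643) were tested with limma 3.58.1 (R 4.3.3; lmFit and eBayes with trend) on log2(value + 1), with 6 group means (6 residual degrees of freedom) and Benjamini-Hochberg adjustment over all genes; called means adjusted p under 0.05 and more than 1.5-fold. Fold changes on this scale understate changes of low genes. The worth of 1 read was estimated from the spacing of values below 150. Counting intervals (95%, exact binomial, scipy) cover counting error only. The fit was checked on simulated data.

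Values in every library are given for each member called in any comparison, for the FGF receptors and for the PDGF ligands, and by range for the rest. Alternatives were pseudocounts of 0.5 and 5, no filter, TMM factors, quantile normalization, no variance trend, the replicate number as a block, only the groups compared, and each library left out. The members, lists and tests were chosen with earlier results of these data known. Of the 46 IDs, 45 were in the RefSeq-based name table, 15 under the same symbol.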

Additional observations from a re-analysis of the deposited data

How the results depend on the processing

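Of the 59 calls, none changed direction under any alternative and 19 held under all. Of the 59, 55 held with a pseudocount of 0.5, 57 with 5, 53 without the filter, 56 with TMM factors, 57 with quantile normalization, 49 without the variance trend, 53 with the replicate block and 41 with only the groups compared. The calls between genotypes in UT ventricles went from 1 to 2 with a pseudocount of 5, with quantile normalization and with only the groups compared, and to 0 without the trend and with the replicate block. At 1 hpci against UT, 7 calls in myd88-/- fish became 4 without the trend, and 6 in myd88+/+ fish became 0 with only the groups compared, where 10 calls from 1 to 24 hpci became 3. The cause was not tested. Over all genes tested, the fit of only the groups compared called 0 in place of 1453 (1 hpci against UT), 4061 in place of 6648 (24 hpci against UT) and 1902 in place of 5793 (24 against 1 hpci) in myd88+/+ fish. In myd88-/- fish, with as few libraries, it called 1552 in place of 1739, 6124 in place of 5014 and 6200 in place of 5716 genes in that order. Between genotypes in UT ventricles, the count of 347 was 586 under quantile scaling, 206 with no trend and 218 with the block. Quantile normalization moved the median gene by -0.18 for 24 against 1 hpci in myd88-/- fish, by -0.11 between genotypes at 24 hpci and by -0.12 and -0.16 in the tests of different change at 24 hpci against UT and against 1 hpci.

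Leaving out each library in turn gave 1 to 3 calls at 1 hpci against UT in both genotypes, 9 to 17 and 3 to 8 at 24 hpci against UT, 7 to 13 and 4 to 8 from 1 to 24 hpci (myd88+/+ and myd88-/-), 0 to 0, 0 to 1 and 0 to 4 between genotypes at UT, 1 and 24 hpci, and 0 to 1, 0 to 1 and 0 to 3 in the tests of different change (1 hpci and 24 hpci against UT, 24 against 1 hpci). A group left with 1 library was assumed to vary like the others. The counts over all genes tested changed with the library left out as well. Deviations of same-numbered libraries correlated at -0.35 to 0.28 over 15 pairs of groups. The 4 above 0.1 were the 3 pairs within myd88-/- fish (0.17, 0.23 and 0.28) and 1 and 24 hpci in myd88+/+ fish (0.28), while the correlations across genotypes were all below 0. With 2 libraries a group and no source for the numbers, they were not taken to pair the samples. The block was a single term over both genotypes, so it could not take up a shift that went opposite ways in them. The 6 calls lost with the block were fgf17 in UT ventricles between genotypes and, in myd88-/- fish, fgf17 at 1 hpci, fgf7 and fgf18b at 24 hpci against UT, and fgfr4 and fgf6a from 1 to 24 hpci. The count tests on recovered reads were not run, because whole reads could not be recovered in every library. In the shallow library, values under 7.61 are fewer than 3 reads, which limits fgf2, fgf4, fgf6a, fgf8a, fgf13a, fgf18b, fgfr3, fgfrl1b and pdgfc at 24 hpci in myd88+/+ fish.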

Other observations

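Some members without a test gave a call once the filter on low values was dropped. fgf24 was at 6 and 8 in myd88+/+ UT ventricles, 0 in all 4 injured myd88+/+ libraries and 0 to 3 in myd88-/- fish (log2 fold change -2.99 at both times, adjusted p = 0.0108 and 0.00200 without the filter, values that depend on the pseudocount because the injured libraries are at 0). fgf11a, an intracellular FGF, was at 7 and 10 in the 1 hpci libraries of myd88+/+ fish, at 5 and 2 in their UT ventricles and at 0 or 1 elsewhere. Its values from 1 to 24 hpci in myd88+/+ fish gave -2.73 (adjusted p = 0.00707). fgf9 was at 8 in the library with skeletal muscle transcripts and at 0 in its replicate, and fgf20a, which is needed for fin regeneration in zebrafish, was at 0 to 6 throughout.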
